A study of Mus musculus with 3 samples.

Results

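Transcripts of the islet endocrine cells were followed through single-cell libraries of leukocytes: Ins1, Ins2, Iapp, Gcg, Sst, Ppy, Pyy and Chga, which are 8 of the 32285 genes counted. They were chosen for the hormone or granule protein that they encode, and their levels were compared between classes of cells defined by other genes. The cells were live CD45+ cells sorted by flow cytometry from dispersed islets of female, wild-type NOD mice, a strain that develops autoimmune diabetes spontaneously. There were 3 libraries, each from the pooled islets of 2 to 3 mice aged 15 to 16 weeks. They came from 2 independent experiments, and which library belonged to which experiment was not given. All libraries are of 1 group, so that no treatment, genotype or age was compared. The p-values measure how differences between cell classes vary over the pooled libraries, with each library's own level set aside. In the model fits this spread is estimated over all classes together. Classes were set by unique molecular identifiers (UMIs) in cells with at least 1000 UMIs and under 10% mitochondrial UMIs. Macrophages had at least 5 UMIs of C1qa and C1qb, no Cd3e and at most 1 Cd79a UMI. B cells had at least 2 Cd79a UMIs and no Cd3e. CD8+ T cells had Cd3e, at least 2 UMIs of Cd8a and Cd8b1 and no Cd4, and CD4+ T cells had Cd3e and Cd4 and no Cd8a or Cd8b1. A dendritic cell gate (Flt3, at least 20 Cd74 UMIs, no Cd3e, C1qa, C1qb or Siglech, at most 1 Cd79a UMI) was added to these.

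Pancreatic islets are small endocrine organs in which beta cells secrete insulin, alpha cells glucagon, delta cells somatostatin and PP cells pancreatic polypeptide. In the mouse, insulin comes from a pair of genes, Ins1 and Ins2, and beta cells store it with amylin, the product of Iapp. Glucagon is made from Gcg, somatostatin from Sst, pancreatic polypeptide from Ppy and the related peptide YY from Pyy, while Chga encodes chromogranin A, a protein of the secretory granules of endocrine cells. Leukocytes that infiltrate the islets in autoimmune diabetes include B cells, CD4+ and CD8+ T cells, dendritic cells and resident macrophages, and islet macrophages are known to take up material of beta cells. When islets are dispersed, RNA released by broken cells can be captured in droplets together with a leukocyte.

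Both insulin genes are counted from the 3′ end of their transcripts, and whether their reads can be told apart bears on every value given for them. In GRCm38 (mm10), Ins1 lies at chr19:52264297-52265476 on the plus strand with 2 exons, and Ins2 at chr7:142678656-142743381 on the minus strand. The first 300 bases of their coding sequences are printed from the start codon, to show how alike they are, with the bases that differ, or have no partner in the other gene, in capitals. The coding parts span chr19:52264624-52264947 and chr7:142678716-142679533 on the genome, stop codon left out and introns included.
Ins1: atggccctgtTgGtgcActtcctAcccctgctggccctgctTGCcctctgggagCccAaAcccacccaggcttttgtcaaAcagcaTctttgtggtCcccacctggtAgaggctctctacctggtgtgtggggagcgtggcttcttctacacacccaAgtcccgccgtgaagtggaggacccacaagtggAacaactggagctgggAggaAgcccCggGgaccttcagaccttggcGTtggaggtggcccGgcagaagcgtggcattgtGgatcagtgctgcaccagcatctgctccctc
Ins2: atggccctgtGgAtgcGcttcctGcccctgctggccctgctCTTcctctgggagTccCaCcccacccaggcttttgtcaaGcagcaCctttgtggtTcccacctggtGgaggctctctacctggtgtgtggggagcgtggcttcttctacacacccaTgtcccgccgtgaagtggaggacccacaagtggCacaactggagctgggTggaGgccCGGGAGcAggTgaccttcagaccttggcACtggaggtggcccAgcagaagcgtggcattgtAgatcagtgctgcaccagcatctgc
The whole Ins1 coding sequence has 327 bases and 108 codons before the stop, and that of Ins2 has 333 bases and 110 codons. Of 327 aligned bases, 302 were the same, and the longest run shared without a difference was 56 bases. In the last 300 bases of the transcripts, where reads of a 3′ library concentrate, the longest shared run was 8 bases. These are unlike parts, since 526 bases follow the stop in Ins1 and 54 in Ins2, whose last 300 bases include coding sequence. The mapping of reads was not tested. The identifiers of the 8 genes are ENSMUSG00000035804 (Ins1), ENSMUSG00000000215 (Ins2), ENSMUSG00000041681 (Iapp), ENSMUSG00000000394 (Gcg), ENSMUSG00000004366 (Sst), ENSMUSG00000017316 (Ppy), ENSMUSG00000017311 (Pyy) and ENSMUSG00000021194 (Chga). Ppy (chr11:102099930-102101319) and Pyy (chr11:102106676-102107832), both on the minus strand, are neighbours with 5356 bases between them, and 148 of their 289 aligned coding bases were the same. Iapp (chr6:142298423-142303961, plus strand) overlaps Slco1a5 on the other strand. Gcg (chr2:62474530-62483650, minus strand), Sst (chr16:23889573-23890958, minus strand) and Chga (chr12:102554969-102565028, plus strand) had no annotated gene on their own strand within their limits.

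The libraries held 5844, 9537 and 11566 barcodes with 33851381, 74775394 and 80806452 UMIs and a median of 4230, 6415 and 5521 UMIs per barcode. The gates took 4936 B cells, 6729 CD4+ T cells, 3258 CD8+ T cells, 150 dendritic cells and 68 macrophages, while 11001 barcodes fell in no gate, 544 had under 1000 UMIs and 261 had at least 10% mitochondrial UMIs. The macrophage gate held only 31, 10 and 27 cells per library. Its cells had a mean of 6450 counts per 1000000 UMIs (CPM) of the lysozyme gene Lyz2, against at most 121 in the other gates, and of the other defining markers only Mertk was low, at 5.29 CPM. Ms4a1 was at 515 CPM in B cells against 32.0 in CD8+ and 57.1 in CD4+ T cells, and Cd3d at 777 and 736 CPM in the T cells against 22.7 in B cells. Libraries shared 12, 18 and 29 barcodes in pairs, none of which held 10 or more UMIs of the 8 transcripts. No doublet caller was run. The B-cell gate bars Cd3e but the T-cell gates bar no B-cell gene, so doublets of a B and a T cell could stay only in the T-cell gates.

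Most hormone UMIs sat in a handful of barcodes rich in granule transcripts, which lay in no leukocyte gate. The 8 transcripts had 76507 UMIs, 0.0404% of all UMIs, of which 9 barcodes held 69048, or 90.3%. These 9 were chosen without the 8 transcripts, by at least 5 UMIs over at least 3 genes of a list of secretory granule genes such as Pcsk2, a prohormone convertase, Scg2, a secretogranin, and Cpe, a carboxypeptidase. They numbered 2, 1 and 6 in libraries 1, 2 and 3 and held 71.8%, 77.2% and 96.0% of the hormone UMIs there. None fell in a leukocyte gate: 8 were in no gate and 1 had under 1000 UMIs.

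Each endocrine-like barcode was led by the hormone of 1 islet cell type. The barcode richest in insulin, in library 3, had 26343 Ins2, 13419 Ins1 and 1806 Iapp UMIs among 55307, no Gcg, Sst, Ppy or Pyy, no UMI of the leukocyte gene Ptprc and 426 UMIs of 13 granule genes. In library 2 the single such barcode had 4274 Ins2, 2539 Ins1 and 599 Iapp UMIs, and in library 1 another insulin-led barcode had 1474 Ins2, 508 Ins1 and 100 Iapp UMIs. The last insulin-led one, in library 3 with only 632 UMIs, held 186 Ins2, 46 Ins1 and 15 Iapp. In the 3 deeper ones, these transcripts and Chga were 75.3% to 80.8% of all UMIs of the barcode.

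Other endocrine-like barcodes were led by glucagon, pancreatic polypeptide or somatostatin. Gcg led 2 of them, with 5367 UMIs in library 1 and 3172 in library 3, and both also held Pyy (106 and 364 UMIs) and Chga (95 and 123 UMIs). Ppy led 2 in library 3, with 5523 Ppy beside 752 Pyy UMIs in the first and 1586 beside 231 in the second. The second held 5 Cd3e and 3 Ptprc UMIs and so T-cell RNA as well. The only Sst-led one had 241 Sst, 10 Pyy and 8 Iapp UMIs in library 3, with 2 Cd3e UMIs. Neither had a Cd4, Cd8a or Cd8b1 UMI, which the T-cell gates ask for. Pyy was therefore found with Gcg, with Ppy or, at 10 UMIs, with Sst, and in no insulin-led endocrine-like barcode.

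**Figure D1:**
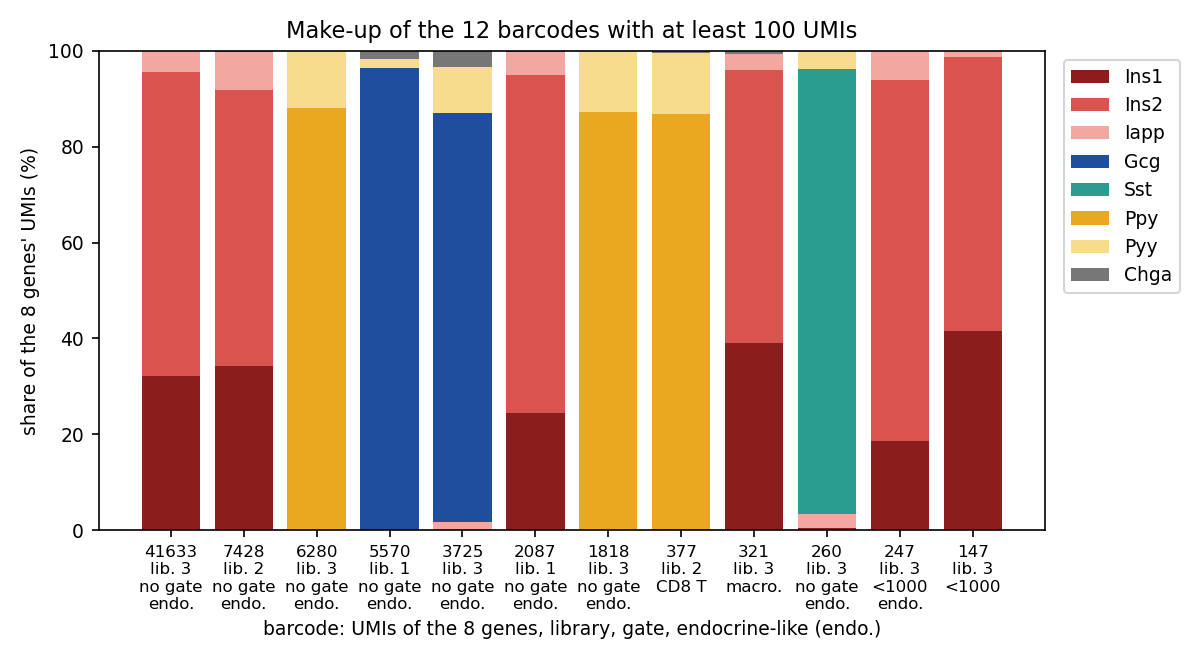
Hormone make-up of the 12 barcodes with 100 or more UMIs of the 8 transcripts; each bar is 1 barcode, split by the share of its hormone UMIs that each transcript held. Insulin-led, Gcg-led, Ppy-led and Sst-led barcodes each carry 1 leading hormone, with Pyy beside Gcg and Ppy.

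Members differed in how much of their RNA lay in these 9 barcodes. The share was 96.6% for Gcg, 93.1% for Ppy, 91.4% for Pyy, 90.6% for Ins1 and 90.4% for Ins2, against 77.4% for Iapp, 75.1% for Chga and 32.4% for Sst. For Iapp the libraries differed, with 100 of its 686 UMIs in endocrine-like barcodes in library 1, against 599 of 683 in library 2 and 1895 of 1984 in library 3. Of the granule genes, which chose these barcodes, the 4 with the most UMIs had 23.2% (Scg5), 91.8% (Resp18), 96.5% (Pcsk2) and 88.9% (Pcsk1n) there, and Pcsk1, named after its value was seen, had 1.48%. Of genes that did not choose them, Ttr, a transthyretin gene high in alpha cells, had 84.5%. The acinar trypsinogen gene Prss2 had 0.602% there. Mafa, a beta-cell transcription factor gene, had 0.210% and so was no mark of beta cells in these libraries. Other genes of the beta-cell list went both ways. G6pc2 and Slc30a8, named after their values were seen, had 100% of 20 UMIs and 92.3% of 26 there. Prlr, Nnat and Slc2a2 had 7.14%, 0% and 7.41%.

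A further 31 barcodes held 10 or more hormone UMIs without meeting the granule rule, and the hormones were again mostly of 1 cell type. An insulin gene led 23 of them, Sst 6 and Ppy 2. Of the 23 insulin-led barcodes, 8 lay in the CD4+ and 2 in the CD8+ T-cell gate, 1 in the dendritic and 1 in the macrophage gate, 10 in no gate and 1 under 1000 UMIs, and 3 had any UMI of Gcg, Sst or Ppy. Of those in the CD4+ gate, the barcodes with 319, 321, 375 and 295 Cd74 UMIs had only 1 or 2 Cd3e UMIs. At least 20 Cd74 UMIs is a mark of the dendritic gate, which bars Cd3e, so these may not be T cells alone. The others in the CD4+ gate had at most 3 Cd74 UMIs. The 6 Sst-led barcodes were all in library 3, with 52, 41, 37, 22, 22 and 15 Sst UMIs, and only 1 of them had an insulin UMI. The B-cell gate, which bars Cd3e, held none of the 31. Among those in no gate, barcodes with 10, 9, 6 and 3 Cd79a UMIs also held Cd3e UMIs, and so RNA of both B and T cells.

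The richest barcodes inside leukocyte gates were a CD8+ T cell and a macrophage. The CD8+ T cell, in library 2, held 326 Ppy and 48 Pyy UMIs beside 10 Cd3e and 7 Cd8a UMIs among 7209, and the ratio of Ppy to Pyy was 6.79, close to the 7.34 and 6.87 of the Ppy-led endocrine-like barcodes. The macrophage, in library 3, held 183 Ins2, 125 Ins1, 11 Iapp and 2 Chga UMIs beside 18 C1qa, 91 Lyz2 and 9 Ptprc UMIs among 12111. Its ratio of Ins1 to Ins2 was 0.683, above the 0.247 to 0.594 of the 4 insulin-led endocrine-like barcodes, and Iapp made up 3.45% of its Ins1, Ins2 and Iapp UMIs against 4.34% to 8.08% in those. Another insulin-led barcode of library 3, with 848 UMIs and not meeting the granule rule, lay beyond the macrophage in both measures, at 0.726 and 1.36%. The CD8+ T cell and the macrophage are single barcodes, and how the hormone RNA came to them was not tested.

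**Figure D2:**
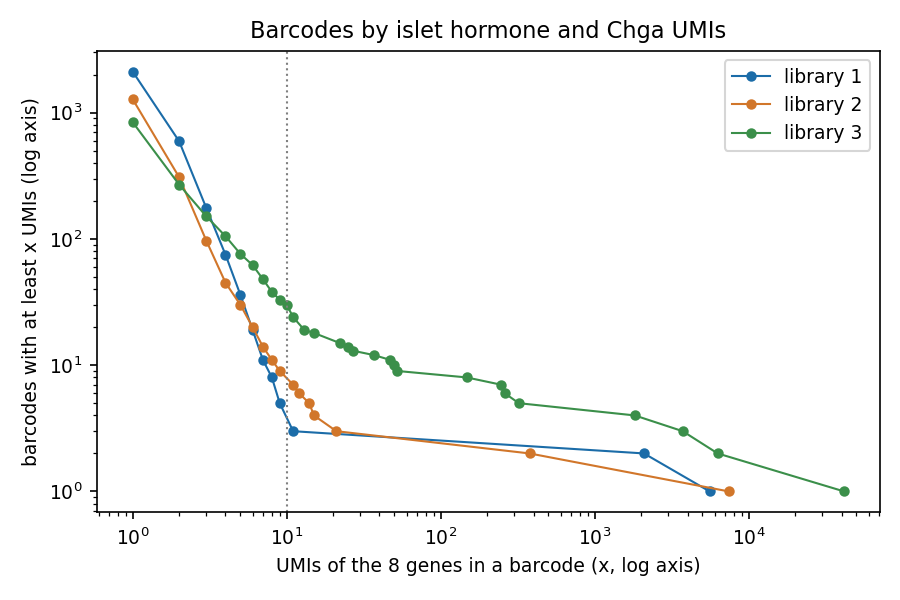
Number of barcodes in each library that hold at least a given number of UMIs of the 8 transcripts (log scales on both axes; the dotted line marks 10 UMIs). Library 1 has the most barcodes with at least 1 UMI, 2107, and library 3 has 30 of the 40 barcodes at or beyond the dotted line.

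Outside the barcodes of 10 or more hormone UMIs, the hormone transcripts formed a low level that was present in every library and differed between libraries. The 26907 barcodes with under 10 hormone UMIs held 6097 of them, which was 28.1%, 18.1% and 2.40% of the hormone UMIs of libraries 1, 2 and 3. With all cells of a gate included, the summed level in B cells was 76.9, 16.5 and 4.19 CPM, in CD8+ T cells 80.6, 56.2 and 15.8 CPM, and in CD4+ T cells 91.9, 26.4 and 27.6 CPM. The level per cell was 0.447, 0.130 and 0.0308 UMIs in B cells, 0.618, 0.519 and 0.123 in CD8+ T cells, and 0.599, 0.228 and 0.213 in CD4+ T cells. Library 1 was highest in all 3 lymphocyte classes, although it was the shallowest and library 3 had the most hormone UMIs overall. With the barcodes of 10 or more hormone UMIs left out, an alternative chosen after seeing the data, the CD8+ T-cell levels were 80.6, 20.9 and 15.0 CPM and the CD4+ levels 91.9, 24.6 and 22.0 CPM, or 0.618, 0.193 and 0.117 and 0.599, 0.212 and 0.169 UMIs per cell. The B-cell gate, which bars Cd3e, had no such barcode.

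In cells with under 10 hormone UMIs, the insulin genes made up most of the level in each lymphocyte class of each library. The values that follow are over all cells of the gates. Ins2 was at 39.5, 9.81 and 1.84 CPM in B cells, 45.5, 12.2 and 6.07 in CD8+ T cells and 43.7, 12.7 and 10.8 in CD4+ T cells. Ins1 was at 16.01, 5.05 and 0.919 CPM in B cells, 13.0, 6.31 and 3.70 in CD8+ T cells and 20.8, 6.37 and 6.45 in CD4+ T cells. Ins1 lay below Ins2 in each class of each library, as it did in the insulin-led endocrine-like barcodes.

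Iapp did not follow the insulin genes between libraries. It had 28.2, 28.4 and 29.3 UMIs per 100 insulin UMIs in the B, CD8+ and CD4+ T cells of library 1, against 4.78, 6.73 and 5.74 in library 2 and 7.41, 5.41 and 6.03 in library 3. The 7.41 of the library 3 B cells rests on 2 Iapp UMIs. The insulin-led endocrine-like barcode of library 1 had 5.05 Iapp UMIs per 100 insulin UMIs, and those of the other libraries 8.79, 4.54 and 6.47. The high Iapp of library 1 was thus seen in all 3 lymphocyte classes and not in that library's insulin-led endocrine-like barcode. Barcodes of no gate with under 10 hormone UMIs had 25.7 per 100 in library 1, against 6.10 and 6.79 in the others. A difference of 1 library from the others was not tested.

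Gcg and Sst also varied against insulin. Gcg had 4.27, 4.98 and 4.51 UMIs per 100 insulin UMIs in the B, CD8+ and CD4+ T cells of library 1, while its endocrine-like barcodes had 271 per 100. In library 3 the same classes had 25.9, 18.9 and 9.28 per 100, the first on 7 Gcg and 27 insulin UMIs. Sst had 0.171, 1.53 and 3.39 per 100 in library 1, 1.44, 7.21 and 13.0 in library 2 and 0, 22.5 and 29.5 in library 3. Within each library, Sst per insulin UMI was thus lowest in B cells and highest in CD4+ T cells, whereas Iapp per insulin UMI differed by less than 1.5 times between the classes of a library.

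The low level was spread over cells but less evenly than equal chance per cell would give. Of library 1 B cells, 33.6% had a hormone UMI at a median depth of 4309 UMIs, where a Poisson spread of the same mean would give 36.1%. In library 2 the values were 10.8% and 12.2% at a median of 6784 UMIs, and in library 3 they were 2.33% and 3.03% at 5899 UMIs. Among CD4+ T cells with under 10 hormone UMIs the shares were 39.5%, 14.4% and 10.0%, against 45.0%, 19.1% and 15.6% under a Poisson spread. Such shares count droplets with a hormone UMI. Whether any lymphocyte transcribes the hormone genes was not tested.

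The deepest cells had more hormone UMIs per cell than those with 2000 to 4000 UMIs but, in T cells, fewer per UMI. T cells stayed above B cells at matched depth. In library 1, B cells with 2000 to 4000 UMIs had 0.296 hormone UMIs per cell and those with at least 16000 had 1.18, and the T cells of the same bins had 0.356 and 1.57. T cells had 0.191 and 0.287 in library 2, a smaller rise, and 0.107 and 0.405 in library 3. Between these bins, T cells fell from 111 to 63.0, from 55.7 to 12.8 and from 30.8 to 18.8 CPM in libraries 1, 2 and 3. The 31 T cells of library 1 with 1000 to 2000 UMIs had 0.516 per cell, above the next bin. The ratio of T to B cells over the 4 bins from 2000 UMIs up ran from 1.05 to 1.34 in library 1, from 1.403 to 2.07 in library 2 and from 4.05 to 13.5 in library 3. The last of these ratios rests on 1 hormone UMI in 126 B cells. After thinning every cell to 1000 UMIs, 7.78%, 1.83% and 0.432% of B cells and 9.51%, 2.75% and 1.95% of T cells had a hormone UMI. The difference was -1.39 ± 0.42 percentage points (SD, n = 3 libraries; exact two-sided sign-flip permutation test, p = 0.25, the smallest that 3 pairs allow).

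**Figure D3:**
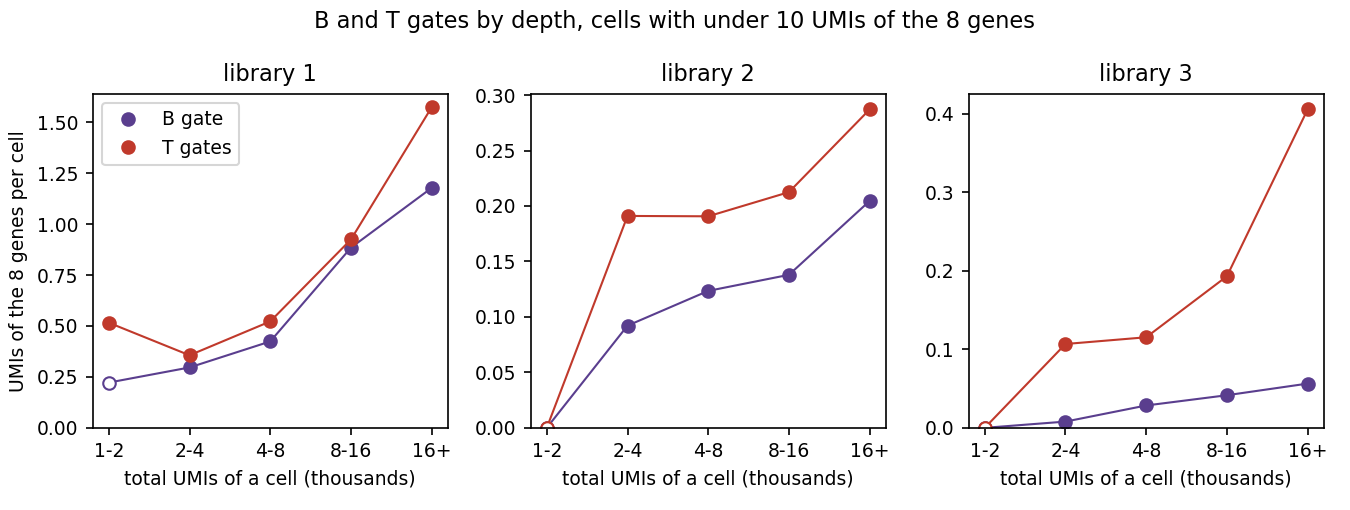
Hormone UMIs per cell against the total UMIs of the cell, in bins, for B and T cells of each library with under 10 hormone UMIs; open points stand for bins of under 20 cells. In both classes the deepest bin is above that from 2000 to 4000 UMIs, and T cells lie above B cells in every bin from 2000 UMIs up.

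Somatostatin RNA separated T from B cells far more than insulin RNA did. Sst had 1, 3 and 0 UMIs in 1816, 1789 and 1331 B cells of libraries 1, 2 and 3, and 19, 67 and 152 UMIs in 1635, 3657 and 4695 T cells. This was 0.551, 1.68 and 0 Sst UMIs per 1000 B cells, where a count of 0 allows up to 2.25 (a floor of 3 UMIs, which like all intervals given covers counting error only), against 11.6, 18.3 and 32.4 per 1000 T cells. The ratio of T to B cells was 21.1, 10.9 and at least 14.4, the last against that floor. Without the barcodes of 10 or more hormone UMIs the last was at least 10.8. In edgeR's quasi-likelihood fit over 5 gates and 3 libraries with the library as a block, Sst was lower in B cells by a log2 difference of -3.95 in CPM (SE 0.59, adjusted p = 2.13e-05) and -4.14 per cell (SE 0.58, adjusted p = 7.74e-06). Sst was the only one of the 6 members tested to be called on the CPM scale (adjusted p under 0.05), where 50.4% of the 11946 genes tested were called and 26.5% were called lower. Pyy and Chga did not pass the filter on low counts, which Sst, rare in B cells, could pass through its T-cell sums. Chga had 8, 1 and 0 UMIs in B cells and 8, 23 and 30 in T cells of libraries 1, 2 and 3. Pyy had 11, 3 and 0 in B cells and 10, 57 and 15 in T cells, with 48 of the 57 in 1 CD8+ T cell.

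The insulin genes and Iapp were not called between B and T cells with all cells of the gates included. Without the barcodes of 10 or more hormone UMIs, Ins2 and Iapp were called lower in B cells per cell but not in CPM. Per cell, 48.2% of genes tested were called in that setting, and the median log2 difference over all genes was -0.28. The insulin genes together had 323, 117 and 20.3 UMIs per 1000 B cells and 431, 167 and 115 per 1000 T cells, so that T cells were higher by 1.33, 1.43 and 5.69 times. The log2 difference in CPM was -0.27 for Ins1 (SE 0.59, adjusted p = 0.733 in edgeR) and -0.31 for Ins2 (SE 0.58, adjusted p = 0.685 in edgeR). For Iapp it was -0.25 (SE 0.47, adjusted p = 0.686 in edgeR), with T cells 1.37, 1.81 and 4.54 times higher per cell in the 3 libraries. Per cell the log2 differences were -0.56 for Ins1, -0.64 for Ins2 and -0.61 for Iapp (adjusted p = 0.454, 0.41 and 0.329 in edgeR). Without the barcodes of 10 or more hormone UMIs they were -0.67 (SE 0.28, adjusted p = 0.0514), -0.67 (SE 0.25, adjusted p = 0.0304) and -0.63 (SE 0.25, adjusted p = 0.0412), of similar size with a smaller error. All 3 libraries had the insulin genes and Iapp higher in T cells per cell, and it was in library 3 that the ratios were above 4. The Iapp ratio there rests on 2 Iapp UMIs in 1331 B cells, and it was 3.69 without the barcodes of 10 or more hormone UMIs.

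Gcg and Ppy were called lower in B cells on the per-cell scale only. Gcg had 25, 0 and 7 UMIs in B cells and 33, 28 and 61 in T cells, or 13.8, 0 and 5.26 against 20.2, 7.66 and 13.0 per 1000 cells. Its log2 difference was -1.32 per cell (SE 0.48, adjusted p = 0.0303 in edgeR) and -1.02 in CPM (adjusted p = 0.0951 in edgeR), and without replicate 2 the per-cell call was lost (log2 difference -0.90, adjusted p = 0.161). Ppy had 16, 6 and 5 UMIs in B cells and 12, 368 and 38 in T cells. Per 1000 cells this was 8.81, 3.35 and 3.76 against 7.34, 101 and 8.09, so that B cells were higher in library 1. Of the 368 UMIs, 326 were in 1 CD8+ T cell. The per-cell log2 difference of Ppy was -2.27 (adjusted p = 0.0473 in edgeR). It became -0.32 (adjusted p = 0.59 in edgeR) without the barcodes of 10 or more hormone UMIs, where 48.2% of genes were called. With all cells of the gates, 48% of genes tested were called per cell and 35.3% were called lower in B cells. Of the 6 testable members, 3 (Sst, Gcg and Ppy) were among them. The members' median log2 difference was -0.98 per cell, against -0.28 over all genes tested, and -0.67 against -0.02 in CPM. Without the barcodes of 10 or more hormone UMIs it was -0.67 against -0.28 per cell and -0.36 against -0.02 in CPM. A member rare in B cells, such as Sst, could pass the filter on low counts through its T-cell sums. The count of members called and these medians therefore cannot by themselves give the direction of the members.

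**Figure D4:**
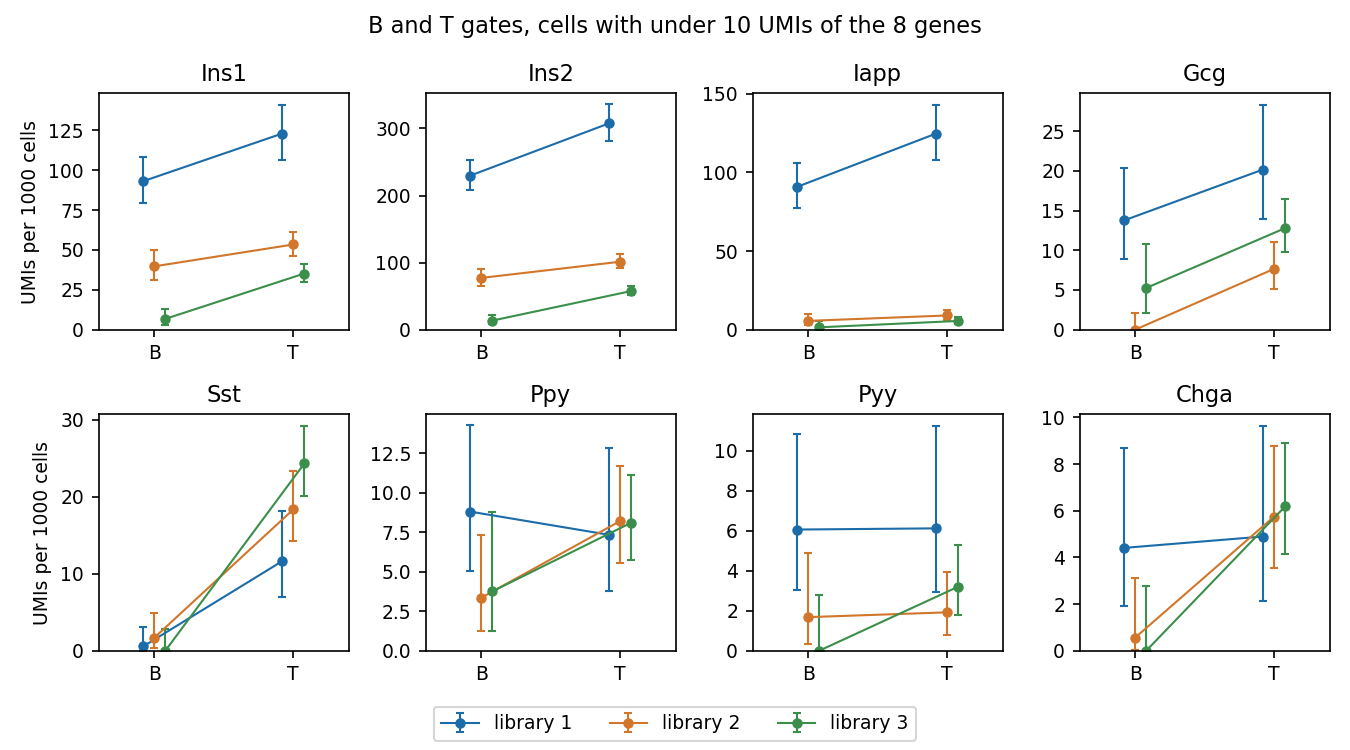
UMIs of each of the 8 transcripts per 1000 B cells and per 1000 T cells in each library, with exact 95% Poisson intervals, in cells with under 10 hormone UMIs; lines join the classes of a library. Sst goes from 0.551, 1.68 and 0 in B cells to 11.6, 18.3 and 24.3 in T cells, while Ins1, Ins2 and Iapp are highest in library 1 in both classes.

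Most T cells with Sst had a single UMI of it, but most Sst UMIs lay in T cells with more than 1. Of the 9987 T cells, 129 had a Sst UMI, 93 of them with exactly 1, and the highest had 22. The cells with exactly 1 thus held 93 of the 238 Sst UMIs of T cells. They numbered 12, 43 and 74 in libraries 1, 2 and 3, against 1, 1 and 0 B cells. T cells with a Sst UMI had a median of 8595 UMIs, against 6222.5 in those without. An insulin UMI was present in 33.3%, 14.0% and 17.6% of the T cells with Sst in the 3 libraries and in 30.9%, 11.7% and 5.26% of those without. Sst was at 2.18, 2.47 and 5.08 CPM in CD4+ and 0.898, 1.33 and 2.20 CPM in CD8+ T cells, a log2 difference of -1.004 between CD8+ and CD4+ T cells (SE 0.40, adjusted p = 0.151 in edgeR).

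Acinar transcripts were also higher in T than in B cells. Acinar cells make digestive enzymes in the exocrine pancreas. Of 22 listed acinar genes 9 were tested, and 6 of them were called lower in B than in T cells in CPM, with a median log2 difference of -2.33 over the 9. Of all genes tested, 50.4% were called and 26.5% were called lower in B cells. A gene rare in B cells could pass the filter on low counts through its T-cell sums. The count and the median over the 9 therefore cannot by themselves give the direction of the list. Prss2 had 5, 3 and 0 UMIs in B cells and 104, 207 and 92 in T cells, a log2 difference of -4.61 (SE 0.55, adjusted p = 3.57e-06 in edgeR). Try5, another trypsin gene, was lower by a log2 difference of -4.25, Ctrb1, a chymotrypsinogen gene, by -2.33, and Clps, the colipase gene, by -1.72, as were Cela1 (-3.29) and 2210010C04Rik (-2.85), which are named here after their values were seen. Over the whole acinar list, T cells had 6.63, 7.89 and 6.11 times the UMIs per cell of B cells. Prss2 (chr6:41521787-41525079), Try5 and 2210010C04Rik lie between the gene segments of the T-cell receptor beta locus, with 8122 bases from Prss2 to the nearest D segment. Ctrb1, Clps and Cela1 lie on other chromosomes. Of T cells with a Sst UMI, 16.7%, 14.0% and 5.41% also had an acinar UMI in libraries 1, 2 and 3, on 2, 6 and 4 cells. The shares in T cells without Sst were 5.36%, 6.14% and 5.45%, so that library 3 showed no excess. T cells with Sst were also deeper, as given above. Whether Sst and acinar RNA reached T cells in the same way was not tested.

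Other lists set beside the members gave little. Of 14 granule genes 2 were tested, and Scg5, which encodes the secretory granule protein 7B2, was lower in B cells by a log2 difference of -3.20 (SE 0.35, adjusted p = 1.58e-06 in edgeR). Of the 14 beta-cell genes only Mafa was tested (log2 difference -0.71, adjusted p = 0.127 in edgeR), no gene of the alpha-cell or stromal list was, and none of 4 endothelial genes was called. Hhex, a delta-cell regulator that B cells also express, was higher in B cells by 3.04, the duct and epithelial gene Epcam by 1.30 and the globin gene Hbb-bt by 3.75 on the log2 scale. None of the 3691 Hhex UMIs lay in the endocrine-like barcodes, whereas Rbp4, of the same delta and PP list, had 73 of its 92 UMIs there.

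Macrophages were above lymphocytes in both insulin genes, and most of the UMIs were in 1 cell. Ins1 had 9, 0 and 129 UMIs in the 31, 10 and 27 macrophages of libraries 1, 2 and 3, and Ins2 had 14, 1 and 189. Their levels were 47.6, 0 and 532 CPM and 74.0, 7.93 and 779 CPM, against at most 20.8 and 45.5 CPM in any lymphocyte class of any library. Macrophages were not higher in library 2, where their only hormone UMI was in 1 of 10 cells. In edgeR, macrophages exceeded the mean of the 3 lymphocyte classes by a log2 difference of 4.88 for Ins1 (SE 0.76, adjusted p = 5.92e-05) and 4.47 for Ins2 (SE 0.77, adjusted p = 0.000171). These 2 of 6 members were called where 35.2% of genes tested were, and the members' median was 2.54 against -0.52 over all genes. That median includes Ppy, with no macrophage UMI, and Gcg, with 2. It was 1.04 against -0.54 without the barcodes of 10 or more hormone UMIs. Per cell the log2 differences were 5.16 for Ins1 and 4.81 for Ins2, with 28.3% of genes called.

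Without the barcodes of 10 or more hormone UMIs, neither insulin gene was called in macrophages, on a background of 35.3% of genes. That removed 1 of the 27 macrophages of library 3, and the log2 differences became 1.45 for Ins1 (SE 0.76, adjusted p = 0.149 in edgeR) and 0.98 for Ins2 (SE 0.60, adjusted p = 0.223 in edgeR). Without replicate 3 they were 1.17 (adjusted p = 0.284) and 0.64 (adjusted p = 0.355). The summed level of the 8 transcripts in the remaining macrophages was 148, 7.93 and 60.7 CPM (exact 95% Poisson intervals 98.3 to 214, 0.201 to 44.2 and 33.2 to 102), against 82.3, 21.2 and 16.5 CPM in the lymphocytes with the same barcodes left out. Macrophages were thus above the lymphocytes in libraries 1 and 3 and below in library 2, where 10 cells limit the estimate. Of the macrophages of libraries 1, 2 and 3, 48.4%, 10.0% and 18.5% had a hormone UMI, at median depths of 5376, 12864 and 8180 UMIs. After thinning to 1000 UMIs the shares were 12.3%, 8.35% and 7.90%, above those of B and T cells, where the value of library 2 rests on 1 UMI. Both sets of shares are over all macrophages and include the cell of library 3 with 321 hormone UMIs. Without it the mean thinned share over the 3 libraries fell from 9.50% to 8.32%, and all of that fall lay in library 3.

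Of the other hormones, Iapp and Sst had UMIs in the macrophages of library 3, and the rest had at most 2 in any library. Gcg had 2, 0 and 0 UMIs, Pyy 1, 0 and 0, Chga 0, 0 and 2, and Ppy none in any library. Iapp had 2, 0 and 11 UMIs and a log2 difference of 2.28 (adjusted p = 0.0957 in edgeR), which turned to -0.76 (adjusted p = 0.543) without the barcodes of 10 or more hormone UMIs. Sst had 4 UMIs in 2 macrophages of library 3 and was called per cell (3.11, adjusted p = 0.037 in edgeR) but not in CPM (2.81, adjusted p = 0.0506), a difference that rests on those 4 UMIs. Without the barcodes of 10 or more hormone UMIs it was called in CPM too (2.94, adjusted p = 0.0428). No acinar gene of 9 and no granule gene of 2 was called in macrophages. Of the endothelial list Pecam1 was lower by a log2 difference of -2.12, and Cdh5 and Kdr were higher on 3 UMIs each.

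**Figure D5:**
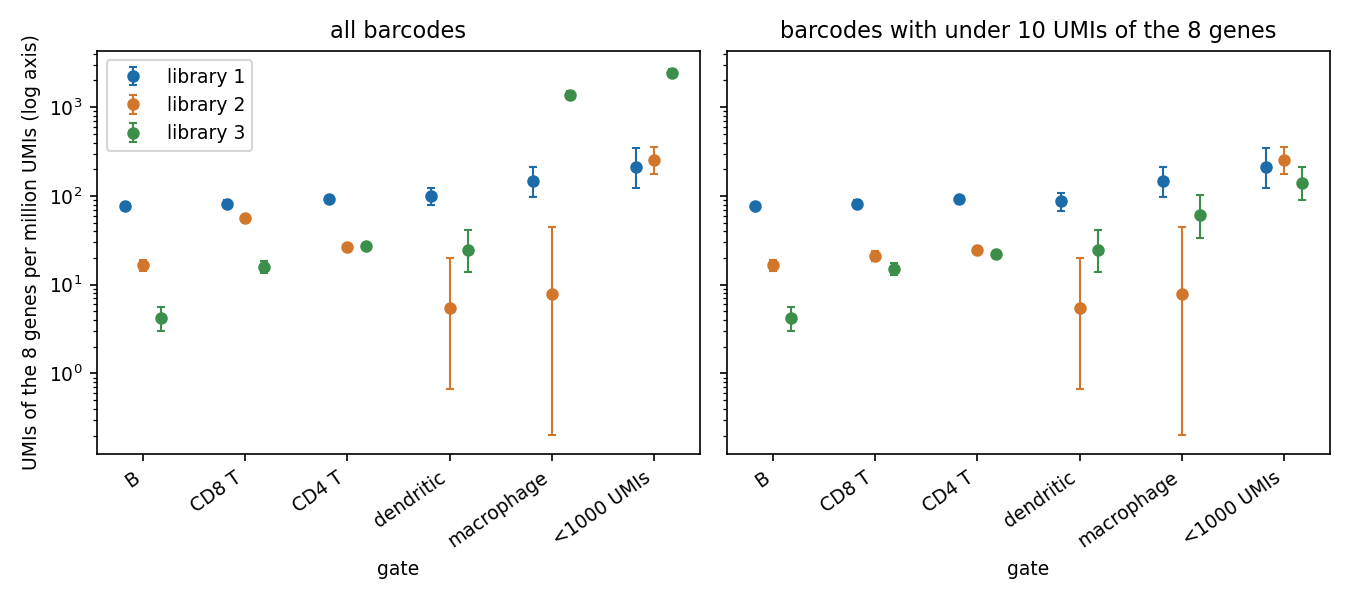
Summed level of the 8 transcripts in each gate and library, in CPM on a log scale, with exact 95% Poisson intervals, and in barcodes under 1000 UMIs, for all barcodes (left) and for those with under 10 hormone UMIs (right). The macrophages of library 3 fall from 1380 to 60.7 CPM when 1 cell is left out.

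No difference between dendritic cells and lymphocytes was detected. Their summed level was 98.9, 5.47 and 24.8 CPM in the 85, 23 and 42 cells of the 3 libraries, and the log2 difference was 0.71 for Ins1 (SE 1.15) and 0.42 for Ins2 (SE 1.06). With edgeR none of the 6 testable members was called on either scale and none had an unadjusted p below 0.05, where 42.5% of genes tested were called on both; DESeq2 called none either. CD8+ and CD4+ T cells gave no call in edgeR either, on a background of 9.44% of genes in CPM and 6.27% per cell, and DESeq2 called none, although Sst and Ppy had an unadjusted p of 0.0223 and 0.0302 in CPM and of 0.0236 and 0.0251 per cell. Ppy was higher in CD8+ T cells by a log2 difference of 2.12 with the Ppy-rich CD8+ T cell and had a log2 difference of -1.29 without barcodes of 10 or more hormone UMIs.

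Barcodes with under 1000 UMIs held more hormone RNA per UMI than lymphocytes but not per barcode. The 110, 191 and 243 such barcodes had 213, 255 and 2444 CPM, a log2 difference from the lymphocytes of 1.37, 3.05 and 6.95 (mean 3.79, exact two-sided sign-flip permutation test p = 0.25, the smallest possible). In library 1, on 16 hormone UMIs, the rise was in Ins2, at 187 against 42.0 CPM. Ins1 and Iapp were lower there, each at 13.3 against 16.9 CPM. Per barcode the log2 differences were -1.84, -0.55 and 3.51, of both signs (mean 0.37, exact permutation p = 1). The library 3 value came from 2 barcodes, with 247 and 147 hormone UMIs, and without the barcodes of 10 or more the log2 differences were 1.37, 3.58 and 3.104 in CPM and -1.84, -0.02 and -0.34 per barcode. Without those barcodes, shallow barcodes had close to the lymphocytes' number of hormone UMIs in libraries 2 and 3, on far fewer UMIs in all, and fewer in library 1.

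The make-up of the hormone RNA in macrophages was compared with that in lymphocytes as far as the counts allowed. The log2 ratio of Ins1 to Ins2 was higher in macrophages by 0.68 in library 1 and by 0.20 in library 3, and library 2 had no Ins1 UMI in macrophages (exact sign-flip permutation test over 2 libraries, p = 0.5, the smallest possible). In library 3 none of 335 hormone UMIs in macrophages was Gcg, where Gcg was 7.46% of the hormone UMIs of the lymphocytes, and 321 of the 335 were from 1 cell. Of the lymphocytes' hormone UMIs in libraries 1, 2 and 3, Iapp was 20.5%, 3.31% and 3.73%, Gcg 3.22%, 1.97% and 7.46%, and Sst 1.11%, 4.93% and 16.7%.

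Over the 15 sums of a library and a gate, the genes whose level was most like that of the summed 8 transcripts were Ano8, Azin1, Insig1, Gng2, Gpr160, Dnajb1, Ccnl1, Baiap2, Fos and Tacc2. Pearson's r of log2(CPM + 1) ran from 0.886 for Ano8 to 0.808 for Tacc2 among 11662 genes ranked. The sums of a library share its depth and its background, and the r values are a description only. Among the members themselves, r with the sum was 0.977 for Ins2, 0.968 for Ins1 and 0.890 for Iapp, against 0.619 for Sst, 0.324 for Gcg and -0.04 for Ppy.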

How the data were processed

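Leukocytes sorted from NOD islets were profiled with a 10x 3′ single-cell kit in 3 libraries. The deposited files hold raw UMI counts per gene and barcode, made by the authors with Cell Ranger 6.0.1 on mm10 per the submitters' processing notes, with no normalization or cell types. Of 26947 barcodes only 544 had under 1000 UMIs, and how barcodes were selected before deposit is not given in the sources used here. Levels are given per cell and per 1000000 UMIs (CPM). UMIs were summed per library and gate (at least 10 cells), and all 15 sums were fitted with edgeR 4.0.16 (R 4.3.3) by quasi-likelihood, with the library as a block because gates of a library share their islets, TMM scaling or an offset of cell number, filterByExpr, and Benjamini-Hochberg adjustment over all genes tested (threshold 0.05). DESeq2 1.42.0 was an alternative. Code was tested on simulated data. Gene positions are from GENCODE M21 (GRCm38). Doublets were addressed only in part by the gates. The macrophage, B-cell and dendritic gates bar Cd3e. The T-cell gates bar the markers of the other T-cell class, but no B-cell or myeloid gene. Stricter gates, which also bar Cd79a, Ms4a1, C1qa and C1qb in T cells, were an alternative.

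The 8 transcripts, gates and gene lists (granule, beta, alpha, delta and PP, acinar, duct, endothelial, stromal, erythroid) were chosen with earlier results of these data known. Named were all 8, from each list the 4 genes with the most UMIs and up to 6 called in macrophages per cell, and the 10 genes most like the summed transcripts; not every eligible list gene is printed. The dendritic gate was added to the 4 gates given. Alternatives were other scaling, no filter, no block, each library left out, other limits on depth and mitochondrial share, and a window of 4000 to 8000 UMIs. Leaving out barcodes of 10 or more hormone UMIs was added after seeing the data.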

Additional observations from a re-analysis of the deposited data

Results flagged for a closer look

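Hormone RNA was also present in barcodes that entered no comparison between gates. In the 7, 147 and 107 barcodes with at least 10% mitochondrial UMIs of libraries 1, 2 and 3, the summed level of the 8 transcripts was 333, 107 and 83.7 CPM, with exact 95% Poisson intervals of 108 to 778, 76.3 to 145 and 51.8 to 128, on 5, 40 and 21 UMIs. In barcodes of no gate with under 10 hormone UMIs it was 99.7, 25.0 and 15.6 CPM (intervals 93.9 to 106, 23.1 to 26.9 and 14.3 to 17.1). Both sets lie outside the gated cells, and they are listed only because no comparison used them. The origin of this RNA was not tested.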

How the results depend on the processing

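The number of the 8 transcripts called was recomputed under each alternative; barcodes of 10 or more hormone UMIs are called rich. For macrophages against lymphocytes, 2 were called in CPM and 3 per cell; with 4000 to 8000 UMIs per cell 0 were called on either scale, without rich barcodes 1, in CPM 4 with DESeq2 and 4 without the filter, and with single replicates left out 0 to 3 in CPM and 0 to 4 per cell, the 0 without replicate 3. For B against T cells, 1 was called in CPM and 3 per cell; in CPM the count was 4 without the filter, 3 with stricter gates, 2 without rich barcodes and filter, and 1 to 4 without single replicates (4 without replicate 1). Per cell it was 7 without the filter, 4 without rich barcodes (Sst, Gcg, Ins2 and Iapp, with Ppy lost), 5 without rich barcodes and filter, 1 at under 5% mitochondrial UMIs, 1 without the replicate block, and 1 to 4 without single replicates (1 without replicate 2, 4 without replicate 1). Without the filter, dendritic cells gave 2 calls per cell, with or without rich barcodes, and CD8+ against CD4+ T cells 2 in CPM and 1 per cell, while leaving out single replicates gave 0 to 1 there on both scales. Sst in B against T cells was called in all alternatives run, from -3.12 to -6.81 in CPM.

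Signs turned for Iapp in macrophages, in CPM and per cell: -0.69 and -0.85 without replicate 3, -1.15 and -1.01 with 4000 to 8000 UMIs, -0.76 and -0.89 without rich barcodes, and -0.82 and -0.89 with no filter as well; with single replicates left out the values ran up to 5.18 and 5.58. Iapp in B against T cells was 0.017 in CPM without the replicate block. Ppy in CD8+ against CD4+ T cells was -1.29 and -1.28 without rich barcodes, and -1.27 and -1.28 with no filter as well. The per-barcode log2 difference of shallow barcodes was -0.057 without endocrine-like barcodes, -0.73 without rich barcodes, and -1.20 to 1.48 without single replicates. The cause of these changes was not tested, except that the alternatives that drop barcodes or a replicate drop the cells named in the report. Without the replicate block, genes called fell from 6020 to 4099 in B against T cells in CPM and from 5729 to 3509 per cell, and from 1128 to 372 and from 749 to 224 in CD8+ against CD4+ T cells. Genes called in macrophages fell from 4209 to 2391 and from 3380 to 2003, and in dendritic cells from 5076 to 950 and from 5083 to 988, with 4000 to 8000 UMIs. Of 269 log2 differences of single members under alternatives chosen from the start, 216 kept direction and side of the threshold. The 68 macrophages limit what could be seen in them.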
